A study of Danio rerio with 12 samples.

Results

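The 7 genes asked for by name were *apoeb*, *apoc1*, *havcr1*, *lgals3bpb*, *lgals9l1*, *mertka* and *axl*, a group of apolipoprotein, galectin-related and phosphatidylserine receptor genes of the kind that microglia express. The rows of the expression table that carried these names were taken, whatever their values, which gave 6 of the 7 genes among 22962 genes in all. No row carried the name *axl* or the identifier that the name table gives for it, so *axl* was not analysed here. The 6 genes found were compared between 3 libraries at 2 h post injury (2 hpi, replicates 1, 2 and 4) and 6 sham libraries (replicates 1 to 6). All larvae carried the *mpeg1:GFP* transgene, which labels microglia and peripheral macrophages under the *mpeg1* promoter, and were 4 days post fertilisation (dpf). In the injured larvae the optic tectum had been pierced with a pin, and GFP-positive cells were then sorted from the heads of injured and sham larvae at 2 hpi. About 180 larvae were pooled for each library, and the labels do not say whether libraries of a group came from separate clutches or days, so p-values measure only the spread between these libraries. Another 3 libraries at 2 hpi, which the study had set aside for their duplication and mapping rates and their place in a principal component plot, were not analysed here.

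Microglia take up dying neurons and handle the lipid that this brings in. Apolipoprotein E and the small apolipoprotein C1 coat lipid particles, and apolipoprotein E is the ligand through which receptors of the LDL receptor family take such particles up. Dying cells expose phosphatidylserine, which receptors of the TIM family (*havcr1* and its relatives) bind directly, whereas the TAM receptor tyrosine kinases (Mertk, Axl and Tyro3) bind it through the bridging proteins Gas6 and protein S. Galectins are lectins that bind galactose-containing sugar chains, and the galectin-3-binding protein is a secreted glycoprotein that carries such chains. In zebrafish larvae, *apoeb* is widely used as a transcript that marks microglia.

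In the comparison that did not use the replicate numbers, none of the 6 genes had a false discovery rate (FDR) below 0.01 between 2 hpi and sham. The log2 fold change of 2 hpi over sham (log2FC), estimated with limma, a linear model fitted across all genes, was positive for 5 of them, between 0.12 for *havcr1* and 0.29 for *mertka*, and negative for *lgals3bpb*, at -0.16. Among all 16085 genes tested, 2.75% passed this threshold, 2.13% with a higher and 0.628% with a lower level at 2 hpi. At an unadjusted p below 0.05, 0 of the 6 genes passed in the limma test, against 17.6% of all genes, and 0 passed with edgeR, with DESeq2 and with limma-voom. At that threshold 1 gene passed with library size alone (*lgals3bpb*), 1 with upper quartile scaling (*mertka*) and 1 without each of 4 libraries in turn, namely replicates 2 and 4 at 2 hpi and sham replicates 1 and 3. With the replicate number added to the fit 2 passed, *apoeb* and *mertka*, and *apoeb* also passed the FDR threshold (limma FDR 0.00607). Over all 16085 genes, that fit called 484 higher and 148 lower at FDR<0.01, where the fit without the number called 342 and 101. Its share of all genes at an unadjusted p below 0.05 was not taken. It rested on replicates 1, 2 and 4 of both groups, since the other sham libraries share no number with 2 hpi. For no member did the groups separate completely, as they did for 10.3% of all genes. With 6 genes, a count of 0 lies near each of these shares. The standard errors of the 6 log2FCs were at or below 0.17, a precision reached by 15.6% of all genes.

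The libraries at 2 hpi had 6754699 to 7156275 reads on genes, and the sham libraries 6868772 to 8180104. Sham replicate 3 stood apart on the first principal component, at 57.8, where the other sham libraries lay between 0.888 and 25.8 and those at 2 hpi between -47.3 and -34.2. The macrophage transcript *mpeg1.1*, whose promoter drives the transgene, averaged 2657 CPM (a gene's reads after scaling for depth) at 2 hpi and 2527 CPM in sham. Of 10 microglial markers, 8 were found, and 1 was higher (*slc7a7*, log2FC 0.85) and 1 lower (*sall3a*, log2FC -1.85) at FDR<0.01. At an unadjusted p below 0.05 in the limma test, 5 of the 8 passed, 3 higher and 2 lower, against 17.6% of all genes. Besides the 2 named, these were *sall1a* (log2FC 0.82, limma FDR 0.0524), *csf1ra* (0.25, 0.211) and *entpd1* (-0.24, 0.278). *p2ry12*, a purinergic receptor of microglia, averaged 171 CPM at 2 hpi and 156 CPM in sham (limma FDR 0.753). The 10 neutrophil markers were all found, summed to 9945 to 13115 CPM at 2 hpi and to 8435 to 11906 CPM in sham, and 2 of them were higher at FDR<0.01, *mmp9* (log2FC 2.18) and *mmp13a* (log2FC 0.77), both genes of secreted metalloproteinases. *mmp9* averaged 1850 CPM at 2 hpi and 417 CPM in sham, and *mmp13a* 3416 and 2036 CPM. The other 8 did not pass, among them *npsn*, at 3573 CPM at 2 hpi and 3930 CPM in sham. *mpx* was also lower at 2 hpi, at 1754 CPM against 2187 CPM in sham (log2FC -0.33, limma FDR 0.125). At an unadjusted p below 0.05 in the limma test, 4 of the 10 passed, 3 higher and 1 lower (*mpx*), against 17.6% of all genes. The 9 markers of peripheral macrophages were all found and summed to 1566 to 1747 CPM at 2 hpi and to 1086 to 1400 CPM in sham, without overlap. Single genes separated in this way for 10.3% of all genes. Of these markers, 2 were higher at FDR<0.01, *timp2b* (log2FC 0.73) and *cmklr1* (log2FC 0.49), 6 had an unadjusted p below 0.05, all higher, and the median log2FC was 0.49. *timp2b* alone averaged 702 CPM at 2 hpi and 427 CPM in sham. *marco* and *mfap4* had log2FCs of 0.08 and 0.05 (limma FDR 0.826 and 0.906), and *siglec15l* one of -0.49 (limma FDR 0.777). The part of neutrophils and peripheral macrophages in the levels given here was not tested. The libraries are bulk RNA, so no level can be assigned to microglia alone, and fewer cells of a type and less RNA per cell cannot be told apart.

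**Figure D1:**
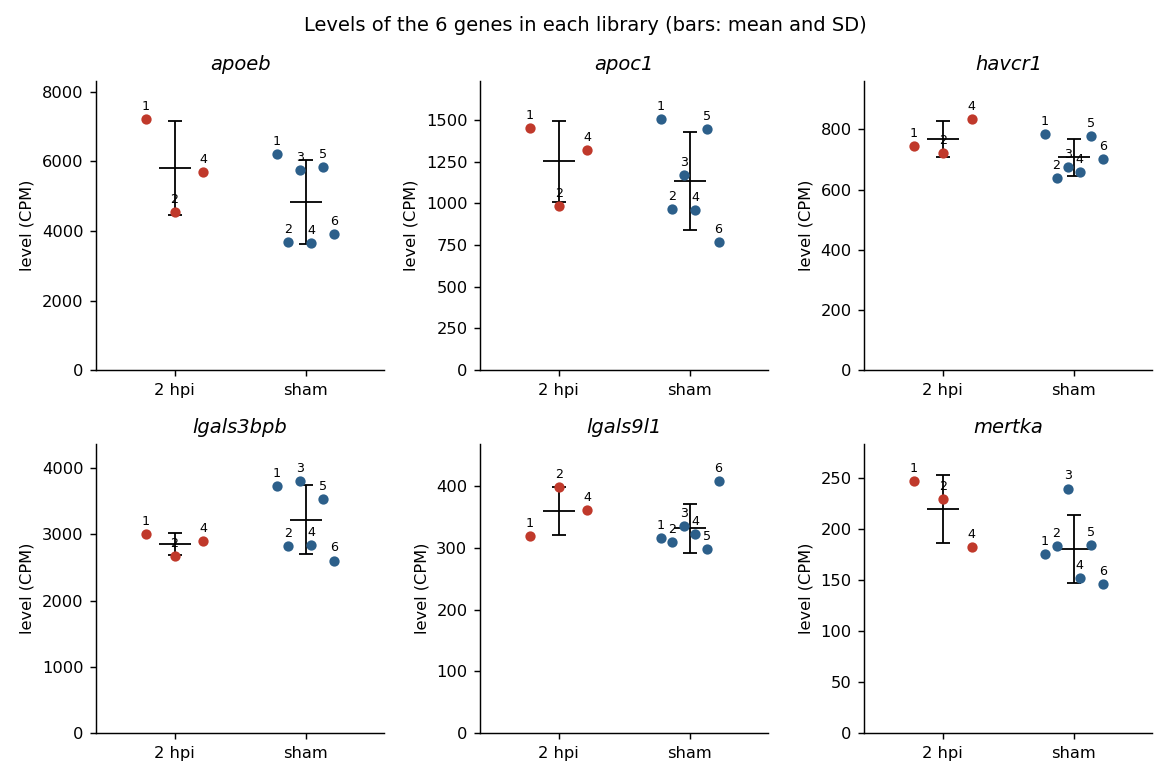
Level in CPM (vertical axes, starting at 0) of the 6 genes in each library, with 2 hpi left of sham; points carry the replicate number, and bars give the mean and SD. The ranges of the groups overlap for every gene, and the sham libraries of *apoeb* lie at 3653 to 3916 CPM or at 5757 to 6199 CPM.

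The apolipoprotein genes were examined first. *apoeb* (ENSDARG00000040295), which encodes apolipoprotein E, had 7218, 4539 and 5684 CPM in replicates 1, 2 and 4 at 2 hpi. In the sham libraries its lowest level was 3653 CPM, its median 4837 CPM and its highest 6199 CPM. Only replicate 1 at 2 hpi exceeded every sham library, and replicate 2 at 2 hpi lay below 3 of them. The mean level was 5814 ± 1344 CPM at 2 hpi and 4837 ± 1206 CPM in sham (SD, n = 3 and 6), and the log2FC was 0.28 ± 0.17 (SE), with a 95% confidence interval of -0.07 to 0.62 and a limma FDR of 0.415. An exact permutation test (two-sided, all 84 choices of 3 from the 9 libraries) gave p = 0.321, and the smallest p that it can give is 0.0119. The value rested on single libraries at 2 hpi, with a log2FC of 0.11 without replicate 1 and 0.44 without replicate 2 (limma FDR 0.846 and 0.217). It also depended on the design. With the replicate number added to the fit, the log2FC was 0.39 and the limma FDR 0.00607, but no label says that these numbers pair the libraries. That log2FC rested on replicates 1, 2 and 4 of both groups. Sham replicates 3, 5 and 6, at 5757, 5822 and 3916 CPM, have no same-numbered library at 2 hpi and did not enter it. So the 2 log2FCs differ in the sham libraries used as well as in the pairing.

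*apoc1* (ENSDARG00000092170), the gene that follows *apoeb* in the RefSeq gene order, likewise had a positive log2FC, at a smaller difference. Unlike *apoeb*, it did not pass with the replicate number added to the fit (log2FC 0.15, limma FDR 0.499). It had 1453, 982 and 1321 CPM in replicates 1, 2 and 4 at 2 hpi, against a lowest level of 768 CPM, a median of 1067 CPM and a highest level of 1506 CPM in sham. No library at 2 hpi was above all sham libraries. The log2FC was 0.16 ± 0.17 (SE), with a 95% confidence interval of -0.18 to 0.51 and a limma FDR of 0.686 (exact permutation p = 0.583).

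The phosphatidylserine receptors were examined next. *havcr1* (ENSDARG00000040178), which encodes a receptor of the TIM family, had 744, 722 and 835 CPM in replicates 1, 2 and 4 at 2 hpi. The sham libraries lay between 638 and 786 CPM with a median of 688 CPM. All 3 libraries at 2 hpi were above the sham median, but 2 of them lay within the sham range. The log2FC was 0.12 ± 0.11 (SE), with a 95% confidence interval of -0.10 to 0.34 and a limma FDR of 0.615 (exact permutation p = 0.214). It was the member with the narrowest interval.

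*mertka* (ENSDARG00000074695), which encodes the TAM receptor tyrosine kinase Mertk, had the lowest p of the group. Its level was 246, 229 and 182 CPM in replicates 1, 2 and 4 at 2 hpi, against a lowest level of 145 CPM, a median of 179 CPM and a highest level of 239 CPM in sham. The sham maximum came from replicate 3 alone, and the other sham libraries lay at 145 to 184 CPM. The log2FC was 0.29 ± 0.15 (SE), with a 95% confidence interval of -0.02 to 0.60, an unadjusted p of 0.0627 and a limma FDR of 0.319 (exact permutation p = 0.143). Without sham replicate 3, the log2FC was 0.38 and the limma FDR 0.111, and without replicate 1 at 2 hpi they were 0.20 and 0.656.

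Of the galectin-related genes, *lgals3bpb* (ENSDARG00000040528), which encodes a galectin-3-binding protein, was the only member with a negative log2FC. It had 3002, 2675 and 2901 CPM in replicates 1, 2 and 4 at 2 hpi, against a lowest level of 2606 CPM, a median of 3190 CPM and a highest level of 3801 CPM in sham. All 3 libraries at 2 hpi lay below the sham median and above the lowest sham library. The log2FC was -0.16 ± 0.12 (SE), with a 95% confidence interval of -0.41 to 0.09 and a limma FDR of 0.545 (exact permutation p = 0.381).

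*lgals9l1* (ENSDARG00000025903), which encodes a lectin related to galectin-9, had 320, 399 and 362 CPM in replicates 1, 2 and 4 at 2 hpi. In sham its lowest level was 298 CPM, its median 318 CPM and its highest 408 CPM. The sham maximum belonged to replicate 6, well above the next sham library at 336 CPM, and all libraries at 2 hpi lay within the sham range. The log2FC was 0.12 ± 0.12 (SE), with a 95% confidence interval of -0.13 to 0.37 and a limma FDR of 0.671 (exact permutation p = 0.345).

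**Figure D2:**
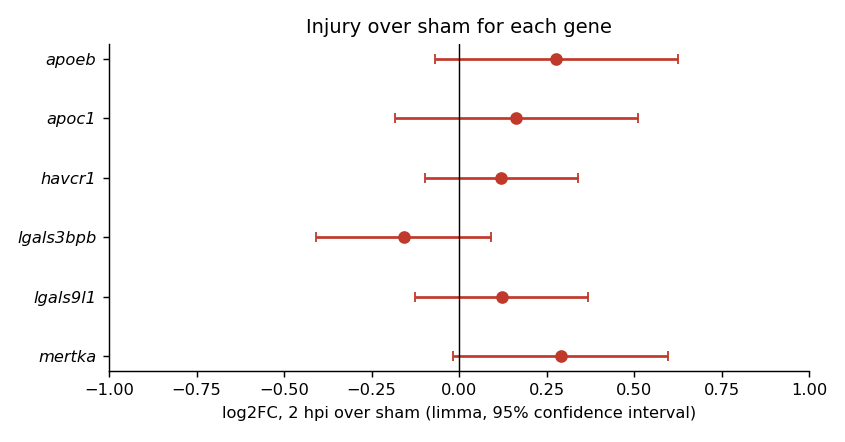
log2FC of 2 hpi over sham (horizontal axis) for the 6 genes; points are limma estimates on log2(CPM + 0.5) and bars 95% confidence intervals. Every interval includes 0, and the widest reach is from -0.41 for *lgals3bpb* to 0.62 for *apoeb*.

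A missed threshold does not show that levels were equal, and the intervals give the range of changes that remained possible. As a fold of 2 hpi over sham, they ran from 0.954 to 1.54 for *apoeb*, from 0.880 to 1.42 for *apoc1*, from 0.935 to 1.26 for *havcr1* and from 0.988 to 1.51 for *mertka*. For *lgals9l1* the interval was 0.916 to 1.29 and for *lgals3bpb* 0.754 to 1.06. No interval reached a doubling or a halving. Each member kept its sign in all 20 alternative settings. With library size alone in place of the TMM factors (which even out libraries of different composition), the median of all genes moved by -0.11 on the log2 scale, and the log2FC of *havcr1* and *lgals9l1* came to 0.00097 and 0.0015.

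The levels in sham larvae showed that the members differed in how much they varied without injury. The coefficient of variation over the 6 sham libraries was 25.8% for *apoc1* and 24.9% for *apoeb*, against a median of 12.2% over the 1846 genes that averaged 100 CPM or more. Counted from the most variable, *apoc1* ranked 62 and *apoeb* 70 among these genes. *mertka*, at 18.5%, and *lgals3bpb*, at 16.3%, also lay above the median. *lgals9l1*, at 11.9%, and *havcr1*, at 8.81%, lay below it. The ratio of the highest to the lowest sham library was larger than the fold between the groups for *apoeb* (1.70 against 1.21) and *apoc1* (1.96 against 1.12). So it was for *havcr1* (1.23 against 1.09), *lgals9l1* (1.37 against 1.09) and *mertka* (1.65 against 1.22). For *lgals3bpb* the ratio was 1.46 and the fold 0.896. The ratio takes single libraries and the fold takes group means, so the 2 measures are unlike.

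This variation followed the same libraries in several genes. *apoeb* was at 6199, 5757 and 5822 CPM in sham replicates 1, 3 and 5, and at 3674, 3653 and 3916 CPM in sham replicates 2, 4 and 6. *apoc1* was at 1506, 1171 and 1445 CPM in the first of these sets and at 963, 959 and 768 CPM in the second. *lgals3bpb* was at 3732, 3801 and 3538 CPM in the first and at 2826, 2842 and 2606 CPM in the second. So in each of these genes sham replicates 1, 3 and 5 lay above sham replicates 2, 4 and 6, and in each of them replicate 2 was the lowest and replicate 1 the highest at 2 hpi. Because the sham libraries fell into separate clusters in *apoeb* and *lgals3bpb*, though not clearly in *apoc1*, no correlation between these genes is given. *havcr1*, *lgals9l1* and *mertka* did not follow this order. In *havcr1* the highest sham libraries were replicates 1 and 5 and the next was replicate 6, in *lgals9l1* the highest were replicates 6 and 3, and in *mertka* they were replicates 3 and 5.

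Some cell type markers moved with this order. *p2ry12* was at 172, 219 and 173 CPM in sham replicates 1, 3 and 5 and at 129, 126 and 120 CPM in sham replicates 2, 4 and 6. *hexb*, another microglial transcript, did not follow it, with sham replicate 2 the highest at 223 CPM and sham replicate 5 the lowest at 144 CPM. Markers of metaphocytes, *mpeg1*-positive cells of the skin that arise from ectoderm, ran the other way. Their marker *grn2* had 34.8, 248 and 91.2 CPM in replicates 1, 2 and 4 at 2 hpi, against 9.06, 66.2 and 26.9 CPM in sham replicates 1, 3 and 5 and 152, 147 and 179 CPM in sham replicates 2, 4 and 6. The 5 metaphocyte markers were all found, summed to 101 to 494 CPM at 2 hpi and to 61.8 to 387 CPM in sham, and none differed at FDR<0.01. The sums of macrophage lineage, microglial, neuron and radial glia markers were also higher in sham replicates 1, 3 and 5. Neuron sums were 77.2 to 125 CPM there and 46.1 to 65.0 CPM in sham replicates 2, 4 and 6. Radial glia sums were 713 to 856 CPM and 489 to 595 CPM in the same sets. The marker *glula* made up most of these sums, at 540 to 664 CPM and 356 to 465 CPM. Erythrocyte markers ran the other way. Their sums were 87.1 to 101 CPM in sham replicates 1, 3 and 5, and 120.5 to 208 CPM in replicates 2, 4 and 6. The sums for neutrophils, peripheral macrophages, keratinocytes and the liver and yolk syncytial layer followed neither order. The part of any of these cells in the levels of the members was not tested.

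**Figure D3:**
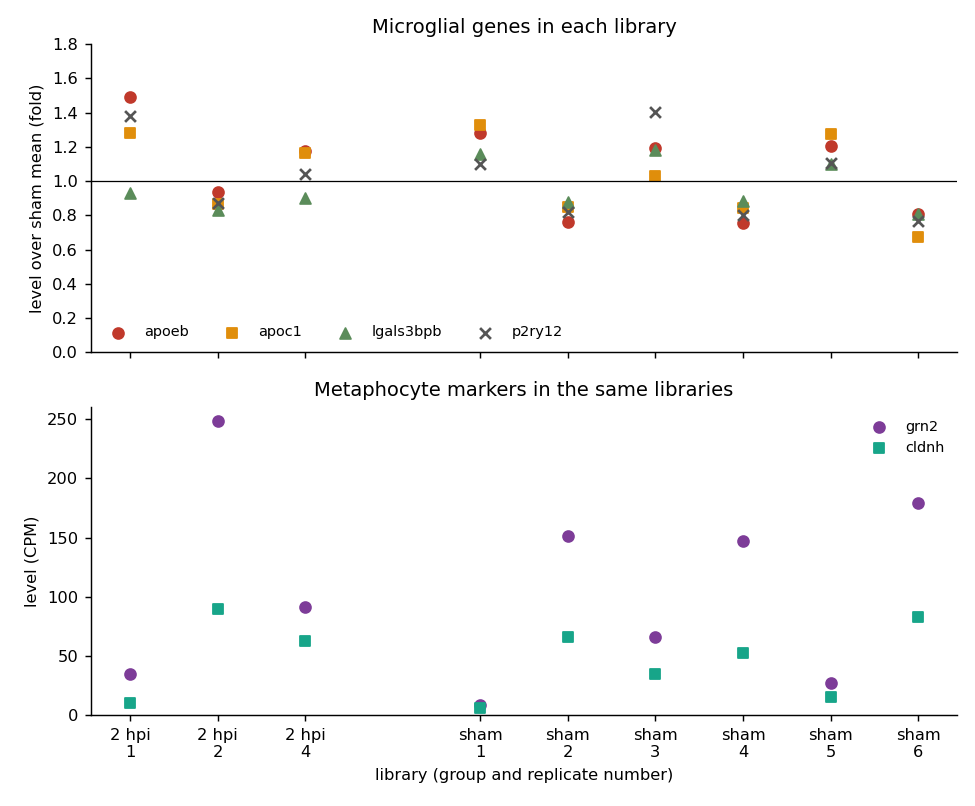
Upper panel, level over the sham mean (fold, vertical axis) of *apoeb*, *apoc1*, *lgals3bpb* and the microglial marker *p2ry12* in each library, with 2 hpi left of sham; lower panel, level in CPM of the metaphocyte markers *grn2* and *cldnh* in the same libraries. Sham replicates 1, 3 and 5 are high in the upper panel and low in the lower one, with *grn2* at 9.06 to 66.2 CPM there and at 147 to 179 CPM in sham replicates 2, 4 and 6.

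Ratios between members were taken within each library. The ratio of *apoeb* to *apoc1* averaged 4.63 ± 0.332 at 2 hpi and 4.30 ± 0.566 in sham (SD, n = 3 and 6), with a coefficient of variation of 13.2% over the sham libraries, below the 24.9% of *apoeb* and the 25.8% of *apoc1*. The ratio of *apoeb* to *lgals3bpb* was 2.40, 1.70 and 1.96 in replicates 1, 2 and 4 at 2 hpi, against 1.29 to 1.66 in the sham libraries. For this ratio the lowest value at 2 hpi exceeded the highest in sham, with a mean of 2.02 ± 0.358 at 2 hpi and 1.48 ± 0.163 in sham. The difference of its log2 was 0.44, and the two-sided exact permutation test gave p = 0.0119, the smallest it can give. The ratio was 1 of 15 between the members, all examined after the levels had been seen, and the adjusted p over the 15 was 0.179 in the exact permutation test. A single ratio at the smallest possible p cannot get a lower adjusted p over 15 ratios, so the correction could not decide on it.

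The gene pairs next to the members were looked at because *apoeb* and *apoc1* lie side by side. In RefSeq's order of protein-coding genes, *apoa4b.2*, *apoeb*, *apoc1* and *apoc4* follow one another. *apoc4* had 4.61 ± 1.34 CPM at 2 hpi and 7.27 ± 1.93 CPM in sham, and its log2FC of -0.59 ± 0.37 (SE) had a limma FDR of 0.440. *apoa4b.2*, at 0.405 CPM at 2 hpi and 0.161 CPM in sham, was too low to be tested. So the neighbour that could be tested did not pass. *havcr1* lies next to *havcr2*, another TIM gene, which had 68.2 ± 13.4 CPM at 2 hpi and 65.7 ± 10.7 CPM in sham (log2FC 0.05, limma FDR 0.925). *timd4*, another gene of this family, had 19.0 ± 5.86 CPM at 2 hpi and 24.6 ± 7.81 CPM in sham (log2FC -0.35, limma FDR 0.562).

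Other paralogues of the members likewise did not pass the test. *apoea*, the second apolipoprotein E gene of zebrafish, had 1.79 ± 1.12 CPM at 2 hpi and 1.08 ± 1.27 CPM in sham, with 0 reads in 2 sham libraries (log2FC 0.84, limma FDR 0.585). *tyro3*, the TAM gene beside *mertka* that was found, had 2.09 ± 1.38 CPM at 2 hpi and 3.35 ± 2.93 CPM in sham (log2FC -0.42, limma FDR 0.775). *lgals3bpa* had 4.48 ± 1.95 CPM at 2 hpi and 6.25 ± 2.52 CPM in sham (log2FC -0.42, limma FDR 0.679). *lgals3bp.2* had 13.2 ± 3.64 CPM at 2 hpi and 13.3 ± 4.45 CPM in sham (log2FC 0.02, limma FDR 0.983). *lgals9l3*, a relative of *lgals9l1* whose row is named *zgc:92326*, had 286 ± 40.4 CPM at 2 hpi and 247 ± 32.9 CPM in sham (log2FC 0.22, limma FDR 0.418). How reads that match several paralogues were counted is not given in the sources used here, so levels within the galectin and galectin-3-binding families are uncertain to that extent. In the RefSeq annotation, the spans of *havcr1*, *lgals9l1*, *apoc1* and *mertka* each overlap that of another gene. Whether their exons overlap was not examined. The kits used do not mark strand, so where exons overlap, the reads of such genes cannot be told apart.

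The wider families were then counted from fixed lists. Of 21 apolipoprotein genes written, 18 were found and 11 tested, and 0 passed an FDR<0.01 in the limma test, with 1 at an unadjusted p below 0.05. The median log2FC of the 11 was 0.28, against -0.02 over all genes tested, and it rested on single libraries. It was 0.05 without replicate 1, 0.67 without replicate 2 and 0.11 without replicate 4 at 2 hpi, and 0.42 and 0.14 without sham replicates 3 and 6. With at least 10 reads asked for in every library, 4 of these genes were tested and their median was 0.0018. The lowest was *apom*, an apolipoprotein of high-density lipoprotein, at -0.81 (0.399 CPM at 2 hpi and 1.40 CPM in sham), and the highest *apoda.1*, a lipocalin, at 1.24 (2.46 CPM at 2 hpi and 0.782 CPM in sham, limma FDR 0.252). The level of 3 reads was 0.349 to 0.466 CPM, and both genes had libraries below it. *apom* ranged from 0.155 to 0.587 CPM at 2 hpi and from 0.137 to 4.09 CPM in sham. *apoda.1* ranged from 1.40 to 3.19 CPM at 2 hpi and from 0.233 to 1.41 CPM in sham. Of 15 markers of the liver and yolk syncytial layer, another source of apolipoprotein messages, 13 were found and 7 tested, and 0 passed an FDR<0.01 in the limma test, with 0 at an unadjusted p below 0.05. They summed to 20.7 to 66.9 CPM at 2 hpi and to 24.4 to 83.4 CPM in sham. The liver marker *fabp10a*, at 0.246 CPM at 2 hpi and 0.224 CPM in sham, was below the level of 3 reads, whereas *apoa1b*, an apolipoprotein of high-density lipoprotein, had 9.57, 2.48 and 37.4 CPM in replicates 1, 2 and 4 at 2 hpi and 1.95 to 48.1 CPM in sham. The part of these cells in the levels of *apoeb* and *apoc1* was not tested.

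Of 23 galectin and galectin-binding genes written, 15 were found and 11 tested, and 0 passed an FDR<0.01 in the limma test, with 1 at an unadjusted p below 0.05. Their median log2FC was 0.04, and it changed sign to -0.08 with library size alone and was 0.05 to 0.16 when 1 library was left out. The highest log2FC belonged to *lgals2a*, a galectin used as a marker of peripheral macrophages, at 0.39 ± 0.15 (SE), with 139 ± 10.7 CPM at 2 hpi and 107 ± 15.1 CPM in sham (limma FDR 0.133). The lowest was that of *lgals3bpa*, given above. A row named after galectin-8 (LGALS8) was not matched to the list and is not in its counts. It had 35.1 CPM at 2 hpi and 35.6 CPM in sham (log2FC -0.02, limma FDR 0.980).

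Of 25 phosphatidylserine receptor genes written, 21 were found and 15 tested. At FDR<0.01, 1 was higher and 1 lower at 2 hpi, against 2.75% of all genes called in either direction. At an unadjusted p below 0.05 in the limma test, 5 passed, 4 higher and 1 lower, against 17.6% of all genes. Their median log2FC was 0.07, and it changed sign to -0.05 with library size alone and to -0.04 without replicate 1 at 2 hpi, and was 0.23 without replicate 4 at 2 hpi. *itgb5* encodes integrin beta 5, which pairs with integrin alpha V to bind the bridging protein Mfge8 on dying cells. Its level was 29.2, 23.4 and 23.3 CPM in replicates 1, 2 and 4 at 2 hpi, against a lowest level of 51.4 CPM and a highest of 80.2 CPM in sham. The groups did not overlap, and *itgb5* fell with a log2FC of -1.35 ± 0.18 (SE) and a limma FDR of 2.85e-05. Its partner *itgav* had 331 ± 30.5 CPM at 2 hpi and 263 ± 30.2 CPM in sham (log2FC 0.33, limma FDR 0.120).

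*scarb1* encodes scavenger receptor B1, which binds high-density lipoprotein as well as phosphatidylserine. It had 66.7, 49.5 and 51.6 CPM in replicates 1, 2 and 4 at 2 hpi, against a lowest level of 13.5 CPM and a highest of 33.7 CPM in sham. The groups did not overlap, and *scarb1* rose with a log2FC of 1.09 ± 0.24 (SE) and a limma FDR of 0.00747. This call was lost in 9 of 20 alternatives, with FDRs of up to 0.0679, among them the fits without any 1 of the 3 libraries at 2 hpi or without sham replicate 1, 4 or 5. The highest log2FC of the list was that of *adgrb1b*, an adhesion receptor, at 2.12, with 6.98, 0 and 16.1 CPM in replicates 1, 2 and 4 at 2 hpi and at most 1.64 CPM in sham (limma FDR 0.159). *stab1*, a scavenger receptor of macrophages, had 806 ± 98.9 CPM at 2 hpi and 771 ± 99.6 CPM in sham (log2FC 0.07, limma FDR 0.835).

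Of 26 genes for bridging proteins and uptake signalling, 26 rows were found, with *xkr8.2* and *vav3b* in 2 rows each, and 21 tested, and 0 passed an FDR<0.01 in the limma test, with 1 at an unadjusted p below 0.05. Their median log2FC was -0.13, and it was -0.23 with library size alone and -0.07 without sham replicate 2. Single genes lay between -0.58 for *c1qa*, a complement protein that binds dying cells, and 1.23 for one of 2 rows named *xkr8.2*, a scramblase gene. The other row of that name had a log2FC of -0.54, at 1.41 CPM at 2 hpi and 2.35 CPM in sham (limma FDR 0.629). *gas6*, which bridges phosphatidylserine to the TAM receptors, had 1.31 CPM at 2 hpi and 2.89 CPM in sham (log2FC -0.46, limma FDR 0.797). Protein S, the other bridge, is encoded by *pros1*, which had 7.89 CPM at 2 hpi and 5.10 CPM in sham (log2FC 0.63, limma FDR 0.482).

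**Figure D4:**
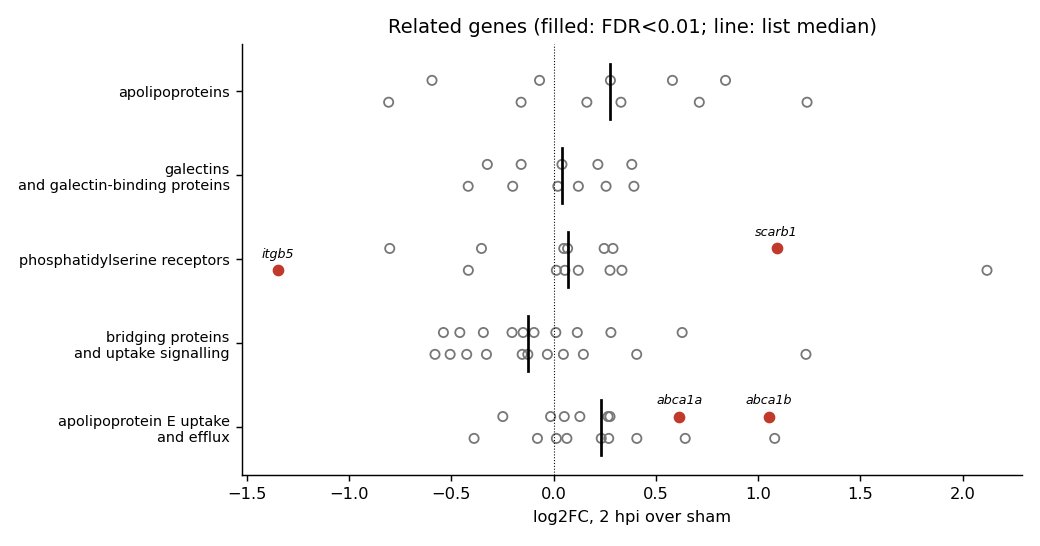
log2FC of 2 hpi over sham (horizontal axis) of the tested genes of 5 lists (rows); filled points have FDR<0.01 and vertical lines mark list medians. The 4 filled points are *itgb5* at -1.35, *scarb1* at 1.09, *abca1a* at 0.61 and *abca1b* at 1.05.

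The last list held genes for uptake and efflux of lipid with apolipoprotein E. From 18 genes written, 19 rows were found, since 2 rows shared the name *nr1h3*, and 17 were tested. At FDR<0.01, 2 were higher and 0 lower at 2 hpi in the limma test, with 4 at an unadjusted p below 0.05, all higher. The shares over all genes were 2.75% and 17.6%. The median log2FC was 0.23, and 0.09 without replicate 2 at 2 hpi, 0.11 without sham replicate 4 and 0.08 without sham replicate 5. The lowest log2FC was -0.39 for *lpl*, a lipase of lipoproteins, and the highest 1.08 for *ldlrb*, a receptor of the LDL receptor family (6.67 CPM at 2 hpi and 3.74 CPM in sham, limma FDR 0.325). Both genes that passed encode ABCA1, the transporter that moves cholesterol and phospholipid out of the cell onto apolipoproteins.

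The summed level of the peripheral macrophage markers given above did not overlap between the groups either and was higher at 2 hpi, and its part in the following levels was not tested. *abca1b* had 844, 770 and 785 CPM in replicates 1, 2 and 4 at 2 hpi, against a lowest level of 357 CPM and a highest of 417 CPM in sham. It rose with a log2FC of 1.05 ± 0.10 (SE) and a limma FDR of 4.91e-07, and passed in all 20 alternatives. *abca1a* had 1109, 882 and 1058 CPM in replicates 1, 2 and 4 at 2 hpi, against 602 to 735 CPM in sham. It rose with a log2FC of 0.61 ± 0.11 (SE) and a limma FDR of 0.000591, which was lost only without replicate 1 at 2 hpi (limma FDR 0.0115). At 2 hpi both genes were highest in replicate 1 and lowest in replicate 2, as was *apoeb*. Among the sham libraries *abca1b* did not follow *apoeb*, with 357 and 358 CPM in replicates 1 and 6, where *apoeb* was at 6199 and 3916 CPM.

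**Figure D5:**
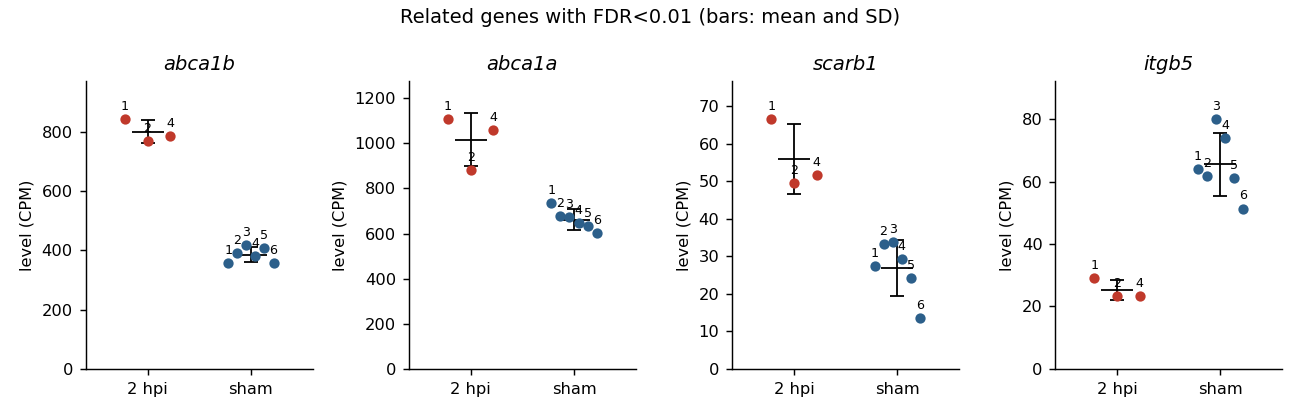
Level in CPM (vertical axes, starting at 0) of the 4 related genes with FDR<0.01 in each library, with 2 hpi left of sham; points carry the replicate number, and bars give the mean and SD. The groups are apart in each panel, as for *abca1b* with at least 770 CPM at 2 hpi and at most 417 CPM in sham.

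Receptors for apolipoprotein E did not pass. *lrp8* had 30.7 ± 0.989 CPM at 2 hpi and 19.6 ± 2.61 CPM in sham (log2FC 0.64, limma FDR 0.0893), without overlap between the groups. *lrp1ab*, a large endocytic receptor of the same family, had 374 CPM at 2 hpi and 309 CPM in sham (log2FC 0.28, limma FDR 0.174). The 2 genes of lysosomal cholesterol export, *npc1* and *npc2*, had log2FCs of -0.01 and 0.05 (limma FDR 0.968 and 0.878).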

How the data were processed

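RNA was sequenced from sorted *mpeg1:GFP*-positive cells at 2 hpi (3 libraries) and from sham larvae (6 libraries). The signal values deposited by the authors are CPM scaled with TMM factors. Per the submitters' processing notes and the study's methods, cutadapt 1.9 trimmed the reads, STAR 2.5.2b aligned them to GRCz10, featureCounts 1.5.1 counted them on exons, genes with near-zero counts were dropped, and edgeR 3.20.1 was used to normalise. Columns of the authors' means, fold changes and p-values were not used.

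Each library's values were divided by that of 1 read to recover its reads (100% of the 22962 values whole within 0.01). Genes were kept with filterByExpr (at least 10 reads in enough libraries and 15 in total), and 16085 genes were tested. The comparison was fitted with limma 3.58.1 (R 4.3.3) on log2(CPM + 0.5) with a variance trend, with Benjamini-Hochberg adjustment over all 16085 genes and a threshold of FDR<0.01. The 0.5 added makes changes of low genes appear smaller. For single levels and ratios, exact permutation tests (two-sided) were used. The level of 3 reads covers counting error only, since amplified reads are not independent molecules. Alternatives were other scalings, filters, pseudocounts (0.1 and 1), an FDR of 0.05, edgeR 4.0.16, DESeq2 1.42.0, limma-voom, a replicate block and leaving out each library.

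Members, lists and tests were chosen with earlier results of these data known. Named were all members, list genes with FDR<0.01, the lowest and highest log2FC of each list, the closest paralogues and marker genes as needed. *apoc4*, *apoa4b.2*, *itgav*, *stab1*, *gas6*, *pros1*, *lrp8*, *lrp1ab*, *npc1* and *npc2* were named after their values had been seen. The most similar genes were to be named only for members with FDR<0.01, of which there were none, so *surf1*, *eif2ak3* and *glula* were likewise named after their values had been seen. The name table held 90.6% of the identifiers. The RefSeq table is of another assembly and served only for names and neighbours.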

Additional observations from a re-analysis of the deposited data

Results flagged for a closer look

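Of 10 genes examined for single libraries far from the rest of their group, 1 stood out. *lgals9l1* was at 407.7 CPM in sham replicate 6, where the next sham library was at 336.0 CPM and the lowest at 297.7 CPM. The gap took up 0.651 of the sham range, more than Dixon's test allows for 6 samples at the 95% level. Chance alone marks about 1 in 20 such groups. Without this library, the log2FC of *lgals9l1* was 0.18 (limma FDR 0.436).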

How the results depend on the processing

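The log2FC of every member kept its sign in all 20 alternatives, and 0 of 6 members passed FDR<0.01 in all of them except the replicate block, where 1 passed. That fit gave *apoeb* a log2FC of 0.39 with a limma FDR of 0.00607. Whether the replicate numbers pair the libraries was not settled. The deviations of same-numbered libraries correlated at 0.131, 0.109 and 0.0245, and those of other pairs at -0.111 to 0.0901. At 2 hpi, 2 of 3 libraries correlated best with their own number, and replicate 4 with sham replicate 3, at 0.0265. For RT-qPCR, the study compared injured with sham cDNA made on the same day, partly from the sequenced samples, but neither the labels nor the methods say that a replicate number marks a day. At an unadjusted p below 0.05, 2 members passed under the block, *apoeb* and *mertka*, and *apoeb* was higher at 2 hpi in all 3 same-numbered pairs. Over all genes, 342 were higher and 101 lower at FDR<0.01, and 484 and 148 with the replicate block. The number of higher genes was 586 at an FDR of 0.05, and 188 to 381 when 1 library was left out. The number of lower genes was 194 with library size alone, 64 with edgeR's quasi-likelihood test, 235 with DESeq2, 44 with limma-voom, 61 with no filter and 326 at an FDR of 0.05, and 43 to 112 when 1 library was left out. The lowest counts came without replicate 4 at 2 hpi for higher genes and without replicate 1 at 2 hpi for lower genes. The cause of these moves was not tested. Between 26752 and 50631 reads per library lay behind the level of *apoeb*.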

Other observations

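The genes whose levels followed those of a member most closely over the 9 libraries were looked up among the 11408 genes that averaged 5 CPM or more, and those named here were chosen after their values had been seen. For *apoeb* the nearest was *surf1*, with a root mean square difference of 0.0887 on the log2 scale, against a median of 0.481 over these genes. For *apoc1* the nearest was *eif2ak3*, at 0.116, and the next was *glula*, at 0.119, against a median of 0.469. *glula* encodes glutamine synthetase and was among the radial glia markers used here. These 10 markers were all found, 6 were tested, and 1 passed FDR<0.01 in the limma test. It was *cx43*, at 189 CPM at 2 hpi and 74.2 CPM in sham (log2FC 1.36, limma FDR 2.17e-06). In sham, *slc1a2b* was higher in replicates 1, 3 and 5, as *glula* was, but *cx43* was highest in replicate 2 and lowest in replicate 3. *gfap* was too low to be tested. The part of radial glia in the level of *apoc1* was not tested. *glula* had 634, 378 and 503 CPM in replicates 1, 2 and 4 at 2 hpi, against 356 to 664 CPM in sham, and its log2FC was 0.01 (limma FDR 0.984). It was high and low in the same libraries as *apoc1*, with its highest sham level in replicate 1 and its lowest in replicate 6.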
